A study of Mus musculus with 8 samples.

Results

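Transcripts that copy DNA and supply its building blocks were followed in the colon of 8 Rag1-/- mice of the C57BL/6 strain, on 1 array per mouse. The gene set holds 44 genes of DNA replication and nucleotide synthesis, picked by name. A gene was read from the brightest probe set annotated to it alone, by mean log2 intensity over the 8 arrays. That gave values for 43 of the 44 genes, out of 30705 named genes in all. Mcm7 had only a probe set annotated to several genes and was not analysed here.

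The inflamed group was 3 mice injected with naïve T cells and killed with severe inflammation of the colon. The naïve cells are the ones that set off colitis in this transfer model. The control group was 5 mice injected with regulatory T cells, whose colons the labels call non-inflamed. All 8 mice lacked Rag1, the recombinase gene without which mature lymphocytes of the T and B lineages do not form, so T cells in these colons stem from the injected cells. Injection was at 10 weeks of age and death 2 to 4 months later, per the labels' protocols, and the labels give an age of 4 to 5 months for every mouse. The labels number biological replicates, and each array was taken as 1 mouse. The sampled stretch is uncertain, since one text names distal colon and another a strip from cecum to rectum. Values are log2 intensities made by the authors with RMA, which have no absolute zero and are compared here only between arrays for the same gene.

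Before a cell can copy its DNA, the origin recognition complex, CDC6 and CDT1 load rings of MCM helicase onto origins in the G1 phase. CDC45 and the GINS complex then turn the rings into active helicases, and polymerase alpha with primase starts each new strand. The sliding clamp PCNA, put in place by replication factor C, holds the main polymerases on the template. Ribonucleotide reductase makes the deoxynucleotides, and thymidylate synthase, thymidine kinase and dUTPase keep thymidine in supply and uracil out. Many of these genes are targets of the E2F factors at the G1/S boundary, and in healthy colon such S phase transcripts come mostly from dividing cells of the lower crypt.

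RefSeq promoter windows of 300 bases (GRCm38.p6, 250 before the annotated start and 50 from it on) were at hand for 35 of the 43 genes. The E2F motif was searched as TTTCGCGC or TTTGGCGC on both strands. It was present for 11 of these 35 genes (31.4%), against 0.929% of all 27025 genes with a window and 1.21% of 17492 protein-coding ones. The 11 were Orc1, Cdt1, Mcm3, Mcm5, Mcm6, Mcm8, Pola1, Rfc3, Lig1, Uhrf1 and E2f2. The CCAAT box, searched as CCAAT on both strands, was present for 21 of the 35 (60.0%), against 41.1% of all genes. The CHR element of late cell cycle genes, searched as TTTGAA on both strands, was present for 5 of the 35 (14.3%), against 20.2% of all genes. Such matches are letters in a window and not measured sites.

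Of the 35 genes with a window, 15 rose in inflamed colon, and 5 of these 15 hold the E2F motif. Orc1, Cdt1, Mcm8, Rfc3, Lig1 and Uhrf1 hold it too and were not called higher. Whether the motif goes with a rise was not tested. The windows below are those of the 5 genes that rose and hold the motif, and of Rrm2. Rrm2 had the largest rise and holds no match to these letters in its window. For Mcm5, Mcm6, Pola1 and Rrm2 the 160 bases before the start are given, and for Mcm3 and E2f2, where the motif lies past the start, 30 bases around it. Capitals mark E2F motif letters, which overlap on opposite strands in Mcm5 and at the first of the marked runs in Mcm6.
Mcm5 (chr8:75109349-75109508, plus strand): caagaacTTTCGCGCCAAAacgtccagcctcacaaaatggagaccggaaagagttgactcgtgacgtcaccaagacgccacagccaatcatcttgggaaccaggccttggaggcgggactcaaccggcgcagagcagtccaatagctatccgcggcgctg
Mcm6 (chr1:128359706-128359865, minus strand): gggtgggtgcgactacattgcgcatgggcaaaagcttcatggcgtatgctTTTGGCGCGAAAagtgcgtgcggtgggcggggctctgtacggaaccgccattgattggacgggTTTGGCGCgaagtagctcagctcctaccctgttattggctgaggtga
Pola1 (chrX:93632156-93632315, minus strand): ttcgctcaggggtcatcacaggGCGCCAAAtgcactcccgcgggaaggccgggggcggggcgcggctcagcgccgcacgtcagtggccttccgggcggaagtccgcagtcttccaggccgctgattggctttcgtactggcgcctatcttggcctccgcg
Mcm3 (chr1:20820263-20820292, minus strand): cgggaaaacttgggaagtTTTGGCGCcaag
E2f2 (chr4:136172294-136172323, plus strand): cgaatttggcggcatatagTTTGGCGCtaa
Rrm2 (chr12:24708094-24708253, plus strand): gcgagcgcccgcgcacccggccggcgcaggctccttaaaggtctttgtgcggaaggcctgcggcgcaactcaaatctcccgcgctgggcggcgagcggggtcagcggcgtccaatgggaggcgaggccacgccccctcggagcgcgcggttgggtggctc

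The arrays were on a near-common scale, with medians over transcript clusters of 4.81 to 4.91. Pearson's r over all named genes was 0.9877 to 0.995 for pairs of inflamed arrays, 0.9948 to 0.9975 for pairs of controls and 0.9786 to 0.9854 between the groups. Inflamed 2 stood apart within its group, at 0.9892 with inflamed 1 and 0.9877 with inflamed 3, which were at 0.995 with each other. The arrays also split by Xist, the RNA of the inactive X chromosome in females, which was low on inflamed 1 and 2 and controls 1 and 2 and high on the other arrays. Epithelial and smooth muscle markers were well measured in both groups, with list means of 11.73 to 11.81 and 10.43 to 10.57 on inflamed arrays and 11.57 to 11.73 and 10.95 to 11.49 on controls. B cell markers had list means of 4.49 to 4.52 on inflamed arrays and 4.51 to 4.54 on controls, and 2 of the 5 measured lay under the median over all transcript clusters of 4.88 on every array.

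Genes of DNA replication and nucleotide synthesis were mostly higher in severely inflamed colon, and none was called lower. Of the 43 genes, 18 rose and 0 fell (limma, Benjamini-Hochberg adjusted p under 0.05 over all 30705 genes). The share risen was 41.9%, against 8.07% of all genes called higher and 5.04% called lower. All 43 had group means above the median over all transcript clusters. Among the 19621 genes with a mean above it in either group, 12.0% were called higher. At an unadjusted p under 0.05, 33 of the 43 differed, against 28.5% of all genes. The median difference over the 43 genes was 0.29 on the log2 scale, with 41 differences above 0 and 2 below, while the median over all genes was -0.01. All 3 inflamed arrays lay above all 5 controls for 30 of the 43, against 12.0% of all genes, and they lay below all controls for 0 of the 43, against 9.17% of all genes. Of the 43, 1 gene, Rrm2, passed with a difference of at least 2-fold, against 2.37% of all genes in either direction, a share near that of the set. In whole tissue, more cells of a type and more RNA per cell cannot be told apart. The members were chosen with earlier results of these data known, so these counts are a description beside their background.

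**Figure D1:**
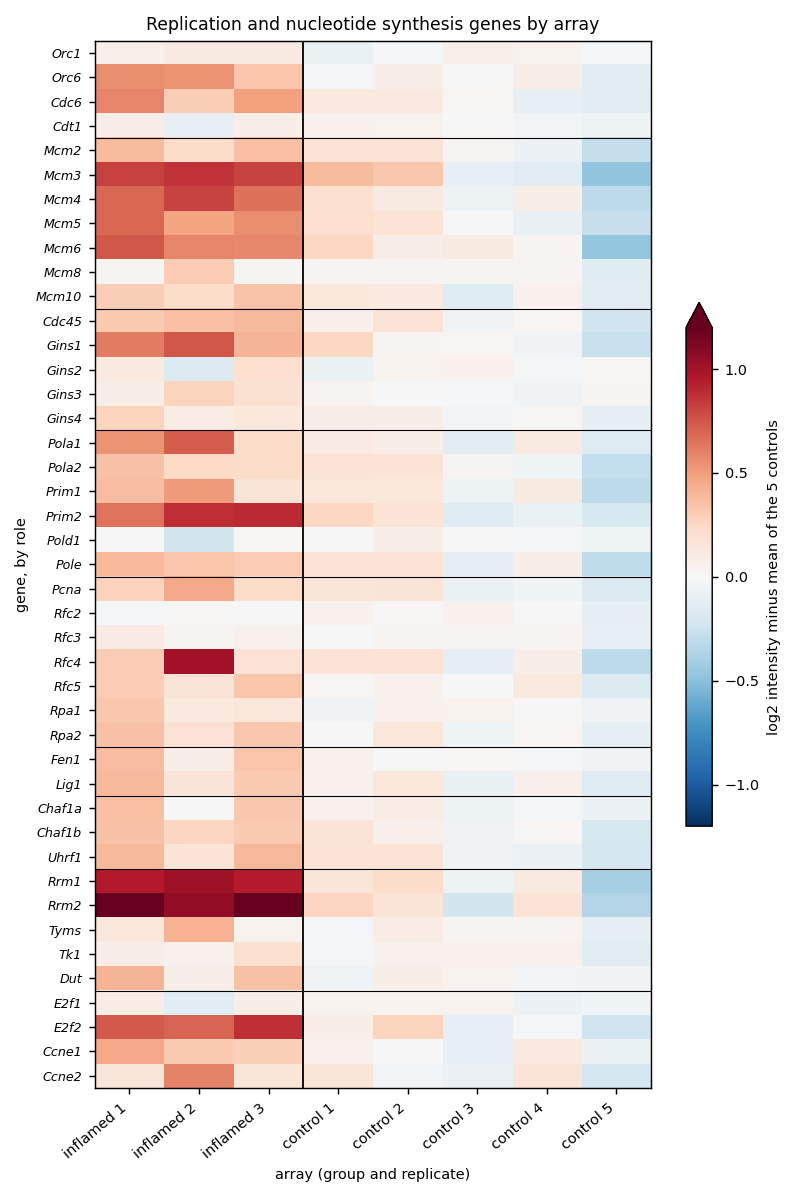
Log2 intensity of 43 genes (rows, grouped by role between the lines) on 3 inflamed and 5 control arrays (columns), each minus the mean of the 5 controls (colour, log2 units). The inflamed columns are red for most genes, Rrm2 and Rrm1 most of all, and control 5 is the lowest control for 35 of the 43 genes.

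Both subunits of ribonucleotide reductase, the enzyme that turns ribonucleotides into deoxyribonucleotides, rose, and Rrm2 had the largest rise of the set. Rrm2, the small subunit gene whose expression follows S phase, had log2 intensities of 7.98, 7.68 and 8.08 on inflamed arrays, against 6.88, 6.77, 6.40, 6.78 and 6.27 on controls. Rrm2 rose by 1.29 ± 0.17 (limma standard error, SE, n = 3 and 5), which is 2.45-fold (adjusted p = 0.00333). The lowest inflamed array, inflamed 2, lay above the highest control, control 1. Rrm1, the large subunit gene, had 8.89, 8.95 and 8.87 on inflamed arrays, against 8.07, 8.15, 7.87, 8.04 and 7.53 on controls. Rrm1 rose by 0.97 ± 0.14, or 1.96-fold (adjusted p = 0.00463), with inflamed arrays close together and control 5 the lowest of all.

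The enzymes that handle thymidine and uracil did not pass. Tyms, which makes dTMP from dUMP, had 7.05 to 7.43 on inflamed arrays and 6.89 to 7.09 on controls, and its difference was 0.20 (95% confidence interval -0.01 to 0.41, adjusted p = 0.187). Tk1, the cytosolic thymidine kinase, differed by 0.11 (-0.02 to 0.24, adjusted p = 0.249). On 4 of the 8 arrays, inflamed 2 and controls 2, 3 and 4, the Tk1 value was the same to every deposited digit. Dut, the dUTPase gene, differed by 0.28 (0.10 to 0.46, adjusted p = 0.0572), with inflamed 1 and 3 at 7.97 and 7.91 and inflamed 2 at 7.63, the same value as control 2. Without inflamed 2 the Dut difference passed (adjusted p = 0.00401).

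**Figure D2:**
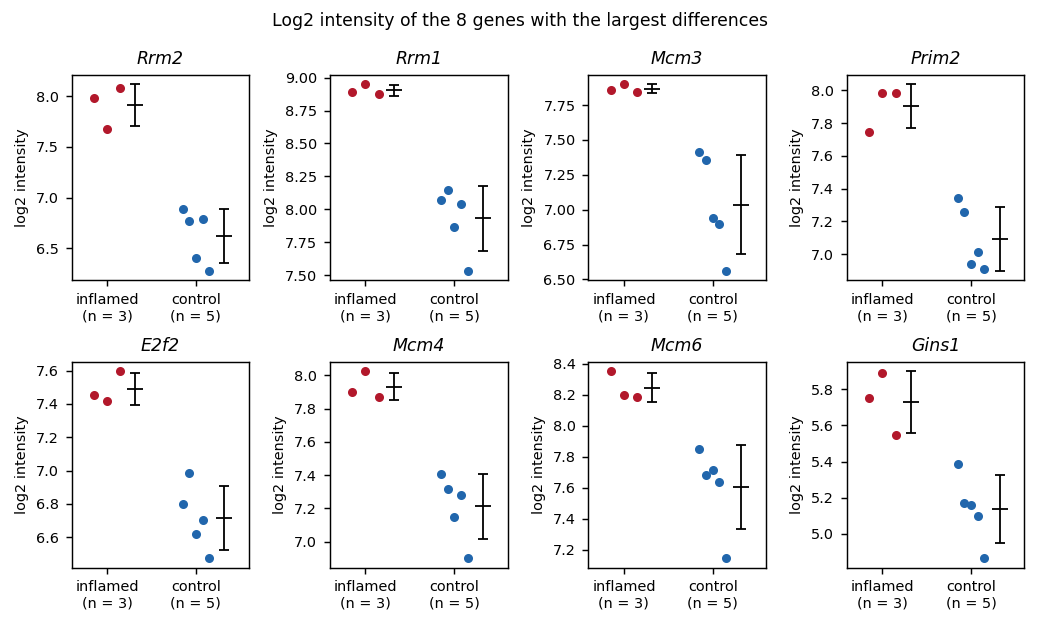
Log2 intensity per array (points, each gene on its own axis) of the 8 genes with the largest differences, in 3 inflamed (red) and 5 control (blue) colons, with the group mean and SD as black bars. The groups do not overlap for any of the 8, and control 5, the rightmost point, is the lowest control in each.

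Of 7 measured MCM genes 4 rose and 0 fell, with a median difference of 0.57. Mcm2 to Mcm7 encode the ring of the replicative helicase. Mcm3 had 7.86, 7.90 and 7.85 on inflamed arrays, against 7.42, 7.36, 6.94, 6.90 and 6.56 on controls, and rose by 0.83 ± 0.19 (adjusted p = 0.0309). The inflamed values of Mcm3 lay close together, while controls 1 and 2 were above controls 3 to 5. Mcm4 had 7.90, 8.03 and 7.87 on inflamed arrays, against 7.41, 7.32, 7.15, 7.28 and 6.90 on controls, and rose by 0.72 ± 0.11 (adjusted p = 0.00709). Its groups did not overlap, and control 5 was lowest.

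Mcm6 had 8.35, 8.20 and 8.18 on inflamed arrays, against 7.85, 7.68, 7.71, 7.64 and 7.15 on controls, and rose by 0.64 ± 0.15 (adjusted p = 0.0338). Mcm5 had 7.63, 7.42 and 7.50 on inflamed arrays, against 7.14, 7.11, 6.94, 6.86 and 6.67 on controls, and rose by 0.57 ± 0.11 (adjusted p = 0.0182). Neither gene's groups overlapped. Mcm2 had 7.65, 7.49 and 7.63 on inflamed arrays, against 7.43, 7.43, 7.30, 7.20 and 6.98 on controls, a difference of 0.32 ± 0.11 that did not pass (adjusted p = 0.0992). Its inflamed arrays all lay above the controls, the nearest pair being inflamed 2 and controls 1 and 2.

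Mcm10, a scaffold at the fork that is no ring subunit, differed by 0.28 (0.10 to 0.47, adjusted p = 0.0586), with inflamed arrays at 6.66 to 6.78 and controls at 6.29 to 6.57. Mcm8, which works with MCM9 in recombination rather than in the replicative ring, differed by 0.13 (-0.05 to 0.30, adjusted p = 0.317). Its value was 5.44 on inflamed 1 and 3 and on controls 2, 3 and 4, equal to every digit.

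Of the 4 genes that load the helicase at origins, 2 rose and 0 fell. Orc6, the smallest subunit of the origin recognition complex, had 7.54, 7.53 and 7.32 on inflamed arrays, against 6.97, 7.06, 6.98, 7.06 and 6.86 on controls, and rose by 0.48 ± 0.068 (adjusted p = 0.00507). Cdc6, the ATPase that joins the complex to load MCM rings, had 6.64, 6.35 and 6.55 on inflamed arrays, against 6.17, 6.18, 6.08, 5.96 and 5.92 on controls, and rose by 0.46 ± 0.087 (adjusted p = 0.0158). Both had groups apart, inflamed 3 being lowest for Orc6 and inflamed 2 for Cdc6. Orc1 differed by 0.09 (0.01 to 0.18, adjusted p = 0.145), and Cdt1, the loading factor that is degraded in S phase, by 0.02 (-0.10 to 0.14, adjusted p = 0.819).

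Among helicase activators, Cdc45 and 2 of the 4 GINS genes rose. Cdc45 had 7.07, 7.12 and 7.15 on inflamed arrays, against 6.82, 6.93, 6.72, 6.78 and 6.53 on controls, and rose by 0.36 ± 0.084 (adjusted p = 0.0337). Gins1 had 5.75, 5.89 and 5.54 on inflamed arrays, against 5.39, 5.17, 5.16, 5.10 and 4.87 on controls, and rose by 0.59 ± 0.12 (adjusted p = 0.0208). Its control values lay near the median over all transcript clusters of 4.88, and control 5 was under it. Gins3 rose by 0.17 ± 0.045 (adjusted p = 0.0453), with inflamed arrays at 5.33 to 5.52 and controls at 5.21 to 5.28. The other GINS subunits did not pass: Gins4 differed by 0.16 (0.02 to 0.29, adjusted p = 0.121) and Gins2 by 0.05 (-0.13 to 0.24, adjusted p = 0.699). These 4 proteins form 1 complex, and whether their transcripts differ unequally was not tested.

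Of the 6 polymerase and primase genes 2 rose and 0 fell. Prim2, the large primase subunit gene, had 7.75, 7.98 and 7.98 on inflamed arrays, against 7.34, 7.26, 6.94, 7.01 and 6.91 on controls, and rose by 0.81 ± 0.12 (adjusted p = 0.00555). Pola1, the catalytic subunit of polymerase alpha, had 6.97, 7.16 and 6.65 on inflamed arrays, against 6.53, 6.51, 6.31, 6.54 and 6.28 on controls, and rose by 0.49 ± 0.12 (adjusted p = 0.039). Inflamed 3 was the inflamed array nearest to the controls for Pola1 and inflamed 1 for Prim2.

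Prim1, the catalytic primase subunit, had 6.60, 6.74 and 6.39 on inflamed arrays, against 6.37, 6.36, 6.17, 6.33 and 5.92 on controls, a difference of 0.34 ± 0.13 that did not pass (adjusted p = 0.123). Pole, the leading strand polymerase, had 6.52, 6.45 and 6.43 on inflamed arrays, against 6.30, 6.29, 6.02, 6.19 and 5.82 on controls, and also did not pass (0.34 ± 0.11, adjusted p = 0.0936). For both, every inflamed array was above every control, by little. Pola2 differed by 0.27 (0.02 to 0.52, adjusted p = 0.147). Pold1, the lagging strand polymerase, had 6.46 to 6.70 on inflamed arrays and 6.63 to 6.77 on controls, a difference of -0.07 (-0.21 to 0.07, adjusted p = 0.476).

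Of the 7 genes of the clamp, its loader and the single-strand binding protein RPA, only Rpa2 passed. Pcna, the sliding clamp gene used as a marker of proliferation, had 8.65, 8.83 and 8.59 on inflamed arrays, against 8.53, 8.53, 8.30, 8.33 and 8.20 on controls. The Pcna difference was 0.32 ± 0.094 (adjusted p = 0.0695), and its inflamed arrays all lay above the controls. Rpa2 rose by 0.28 ± 0.066 (adjusted p = 0.0335), with 5.96 to 6.14 on inflamed arrays and 5.67 to 5.93 on controls, and its partner Rpa1 differed by 0.19 (0.06 to 0.32, adjusted p = 0.0638). Rfc4, a subunit of the clamp loader, had 7.24, 7.94 and 7.11 on inflamed arrays, against 7.11, 7.11, 6.82, 7.004 and 6.62 on controls (0.50 ± 0.21, adjusted p = 0.164). Inflamed 2 alone was far above the controls for Rfc4, and inflamed 3 was level with controls 1 and 2. Rfc5 differed by 0.26 (0.10 to 0.43, adjusted p = 0.0508), Rfc3 by 0.06 (-0.03 to 0.15, adjusted p = 0.35) and Rfc2 by -0.00204 (-0.10 to 0.10, adjusted p = 0.986).

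Of the pair that completes lagging strand fragments, Fen1, the flap endonuclease, rose by 0.26 ± 0.066 (adjusted p = 0.0442), with 6.19, 5.90 and 6.15 on inflamed arrays and 5.78 to 5.88 on controls. Lig1, the ligase, differed by 0.29 (0.10 to 0.47, adjusted p = 0.0553). Chaf1b, the middle subunit of the CAF-1 histone chaperone, had 6.52, 6.43 and 6.49 on inflamed arrays, against 6.33, 6.24, 6.14, 6.18 and 5.98 on controls, and rose by 0.31 ± 0.074 (adjusted p = 0.0368). Its groups did not overlap. Chaf1a, the large subunit, differed by 0.23 (0.03 to 0.43, adjusted p = 0.124), with inflamed 2 at 6.70 among the controls of 6.62 to 6.78. Uhrf1, which recruits the maintenance DNA methyltransferase, had 7.67, 7.44 and 7.67 on inflamed arrays, against 7.43, 7.43, 7.23, 7.21 and 7.07 on controls, and did not pass (0.32 ± 0.101, adjusted p = 0.0861).

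Among the G1/S regulators E2f2 and Ccne1 rose, while E2f1 and Ccne2 did not pass. E2f2, an activator E2F gene, had 7.46, 7.41 and 7.60 on inflamed arrays, against 6.80, 6.98, 6.62, 6.70 and 6.47 on controls, and rose by 0.77 ± 0.11, or 1.71-fold (adjusted p = 0.00517). Ccne1, a cyclin E gene, had 6.67, 6.52 and 6.49 on inflamed arrays, against 6.26, 6.21, 6.11, 6.32 and 6.13 on controls, and rose by 0.35 ± 0.062 (adjusted p = 0.0114). Groups were apart for both. E2f1 had 6.22 to 6.43 on inflamed arrays and 6.27 to 6.38 on controls, a difference of 0.01 (-0.12 to 0.15, adjusted p = 0.914). Ccne2 differed by 0.29 (-0.01 to 0.60, adjusted p = 0.187), with inflamed 2 highest at 6.98 and inflamed 1 at the level of control 1, 6.53.

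**Figure D3:**
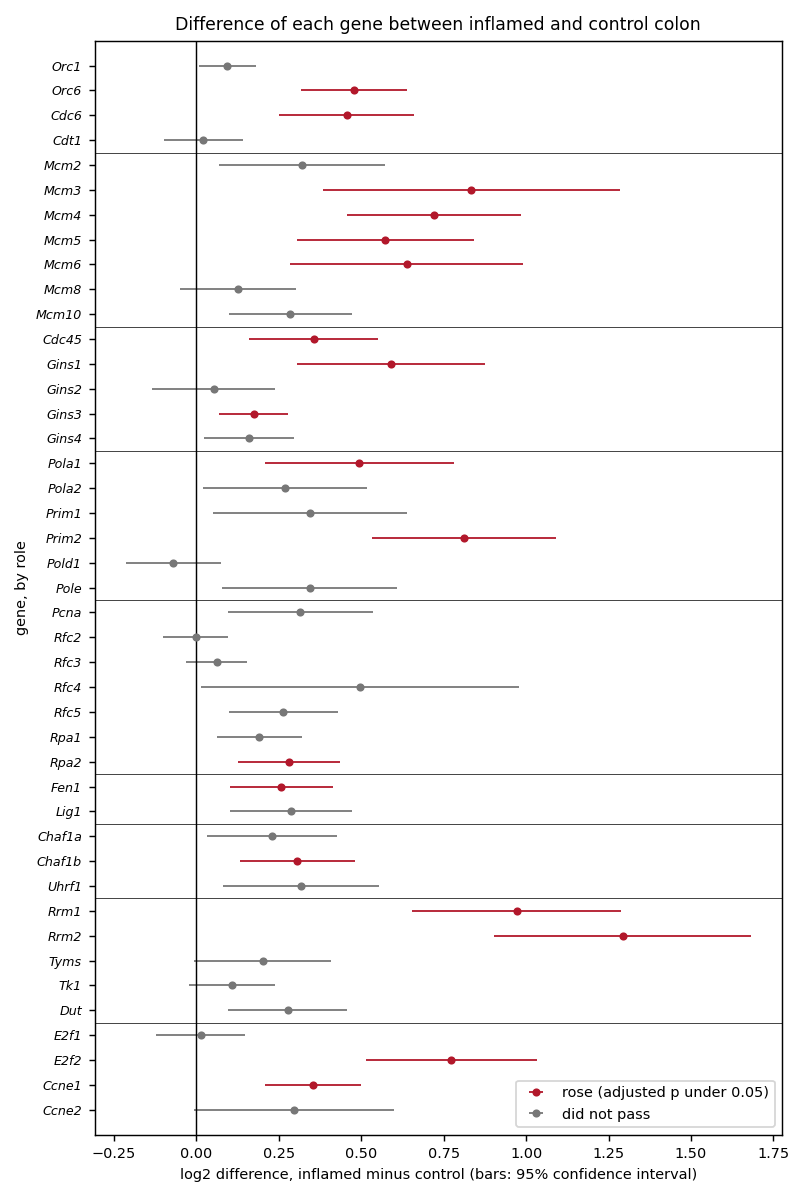
Difference in log2 intensity, inflamed minus control, of 43 genes (points) with 95% confidence intervals (bars), grouped by role. The 18 genes that rose are red, from Gins3 at 0.17 to Rrm2 at 1.29, and 41 of the 43 points lie right of 0.

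How often a call held with 1 array left out differed between genes. Orc6, Mcm4, Prim2, Rrm1, Rrm2, E2f2 and Ccne1 passed whichever 1 of the 8 arrays was left out. The calls of Cdc6 and Mcm5 ended only without inflamed 1 (adjusted p = 0.0593 and 0.0713), and that of Gins1 without inflamed 1 or 2 or control 4 (0.0533 to 0.073). Mcm3, Mcm6, Cdc45, Gins3, Pola1, Rpa2, Fen1 and Chaf1b each lost the call in 5 to 7 of the 8 fits without 1 array (adjusted p = 0.0564 to 0.14 in those fits). With all arrays these genes were already near the threshold (adjusted p = 0.0309 to 0.0453). A call lost in most of these fits does not point to a single mouse. The number of genes that rose was 8 without inflamed 1, 11 without inflamed 3, 10 without control 3 and 9 without control 4, and the differences of the 18 stayed above 0 in every such fit. The count over all genes moved too, to 1663 called higher without inflamed 1 and 2618 without inflamed 2, against 2478 with all arrays. Without inflamed 2, 16 genes of the set rose: 7 calls ended, and Rfc5, Rpa1, Lig1, Chaf1a and Dut passed. Inflamed 2 was the lowest inflamed array for 22 of the 43 genes and the highest for 14.

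The controls differed among themselves in step across the set. Control 5 was the lowest control for 35 of the 43 genes, with a median of -0.16 from the control mean, and controls 1 and 2 lay at 0.07 and 0.08. On inflamed arrays the median was 0.35, 0.27 and 0.31 above the control mean. Controls 1 and 2, the pair with low Xist, were on average above controls 3 to 5 for 41 of the 43 genes (median 0.14), against 45.7% of all genes. The part of sex in these differences among controls was not tested.

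With the Xist pattern as a block, 13 of the 43 genes rose and 0 fell, with a median of 0.27, against 6.58% of all genes called higher and 4.07% called lower in that fit. Mcm6, Cdc45, Gins3, Rpa2, Fen1 and Chaf1b then missed the threshold (adjusted p = 0.0534 to 0.0868), and Pcna passed (adjusted p = 0.0363). Within the low Xist arrays (inflamed 1 and 2 against controls 1 and 2) the median was 0.20, and both inflamed arrays lay above both controls for 32 of 43 genes, against 21.1% of all genes. In that comparison limma called 0 genes of any kind, and 15 of the 43 had an unadjusted p under 0.05, against 4596 of all 30705 genes. For the high Xist arrays (inflamed 3 against controls 3 to 5) the median was 0.35 with no test, and inflamed 3 was above all of these controls for 40 of 43 genes, against 29.9% of all genes. Rrm2 was higher by 1.005 within the low and by 1.59 within the high Xist arrays, and Mcm3 by 0.49 and 1.05.

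**Figure D4:**
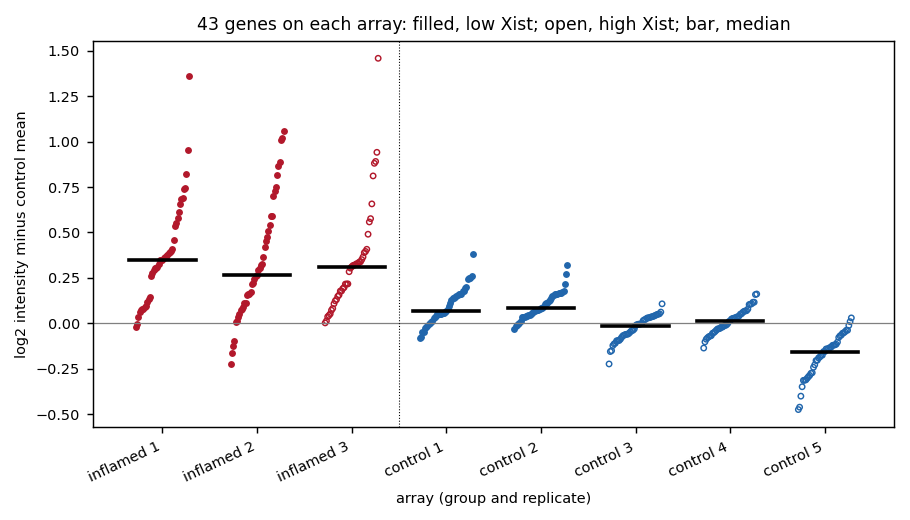
Log2 intensity of the 43 genes (points, sorted within an array) minus each gene's control mean, on 3 inflamed (red) and 5 control (blue) arrays, with the median as a bar. Filled points are arrays with low Xist and open points arrays with high Xist. Medians are 0.27 to 0.35 on inflamed arrays and -0.16 to 0.08 on controls, where control 5 is lowest.

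Replication genes outside the set were counted in the same fit. The counts for this and the following lists stand beside 8.07% of all genes called higher and 5.04% called lower. Of 39 measured other genes of origin firing, fork progression and chromatin replication, 16 rose and 0 fell, with a median difference of 0.26. Cdc7, the kinase that fires origins, rose by 1.08 ± 0.079 (7.27 ± 0.12 on inflamed arrays and 6.19 ± 0.11 on controls, SD, n = 3 and 5, adjusted p = 0.000456). Its activating subunit Dbf4 rose by 0.82 ± 0.062 (adjusted p = 0.000511). Top2a, the topoisomerase that untangles replicated chromosomes, rose by 0.92 ± 0.14 (adjusted p = 0.00715). All 3 passed whichever array was left out.

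Of 38 measured other genes of nucleotide synthesis and salvage 13 rose and 2 fell, with a median of 0.21. Upp1, which splits uridine, rose by 1.65 ± 0.33 (adjusted p = 0.0185), though not without inflamed 1 or 3 (adjusted p up to 0.0694). Samhd1, which breaks down deoxynucleotides and so works against ribonucleotide reductase, rose by 1.12 ± 0.17 (10.44 ± 0.30 on inflamed arrays and 9.32 ± 0.23 on controls, adjusted p = 0.00605). SAMHD1 is also abundant in myeloid cells. The 2 that fell were Adk, adenosine kinase, by 0.91 ± 0.16 (adjusted p = 0.0103), and Cda, cytidine deaminase, by 0.86 ± 0.11 (adjusted p = 0.00342).

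Of 27 measured mitotic genes 18 rose and 0 fell, with a median of 0.59. The centromere kinesin Cenpe rose by 0.98 ± 0.11 (adjusted p = 0.00211), the spindle protein gene Hmmr by 0.89 ± 0.17 (adjusted p = 0.0148) and the checkpoint kinase Bub1 by 0.82 ± 0.13 (adjusted p = 0.00896). Of 17 measured genes of the S phase checkpoint and repair 13 rose and 0 fell, led by the helicase Blm at 0.85 ± 0.103 (adjusted p = 0.00267), the PCNA-binding Pclaf at 0.75 ± 0.094 (adjusted p = 0.00304) and the chromatin remodeller Hells at 0.74 ± 0.16 (adjusted p = 0.0224). The Hells call ended without inflamed 1 or 2 or control 3 or 4. Without inflamed 1 the calls numbered 10 for the mitotic and 6 for the checkpoint and repair genes, and the checkpoint and repair count was 8 without control 3.

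The other regulators of G1 and S were mixed: 5 of 30 measured genes rose (16.7%) and 3 fell, with a median of 0.04. Over all genes 8.07% were called higher and 5.04% lower, and a difference of this list from those shares was not tested. Tfdp1, the dimer partner of E2F proteins, rose by 0.60 ± 0.054 (adjusted p = 0.000993), with 9.32 to 9.39 on inflamed arrays and 8.61 to 8.84 on controls. Myc rose by 0.52 ± 0.10 (adjusted p = 0.0161). The 3 that fell were Tfdp2, another E2F partner gene, Lin37, a subunit of the DREAM repressor, and Cdkn2b. Cdkn2b, an inhibitor of the cyclin D kinases, fell by 0.58 ± 0.14 (adjusted p = 0.0365), a call that ended in 6 of the 8 fits without 1 array. Without inflamed 1, the calls in either direction numbered 4 in this list, against 8 with all arrays.

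Cell type markers moved with the groups as well. All 7 measured T cell markers rose (list means 6.05 to 6.70 on inflamed arrays and 4.96 to 5.08 on controls), as did all 6 macrophage markers (7.05 to 7.28 on inflamed arrays and 6.03 to 6.21 on controls). Of the 7 T cell markers, 1 lay under the median over all transcript clusters of 4.88 on every array. Of 6 neutrophil markers 4 rose (7.58 to 9.34 on inflamed arrays and 5.26 to 5.57 on controls). Of 6 smooth muscle markers 5 fell (10.43 to 10.57 on inflamed arrays and 10.95 to 11.49 on controls), and among controls that list was highest on 4 and 5, at 11.49 and 11.42, and lowest on 1, at 10.95. Of 6 epithelial markers 0 rose and 0 fell, with control 5 lowest at 11.57. Goblet cell markers had 3 of 6 fallen, differentiated colonocyte markers 3 of 6 fallen and 1 risen, and crypt base markers 1 of 5 fallen, Lgr5. Some of these calls passed whichever array was left out. Of the rises these were 6 of 7 T cell, 5 of 6 macrophage and 4 of 4 neutrophil markers. Of the falls they were 4 of 5 smooth muscle, 2 of 3 colonocyte and 1 of 3 goblet cell markers. Several others missed the threshold in some of the fits without 1 array. Lgr5 and Muc2 each missed it in 7 of the 8 such fits and Slc26a3 in 6. With all arrays their limma adjusted p were 0.0443, 0.0382 and 0.0389, near the threshold. Their differences stayed below 0 in every such fit. Without inflamed 1 the goblet cell falls left were 1 of 3, since Muc2 and Clca1 were lost, and the crypt base fall was lost. The rise among colonocyte markers, Krt20, was lost in 4 of these fits. No endothelial, fibroblast or B cell marker passed, and 2 of 5 neuron and glia markers fell, both lost without inflamed 1, control 2 or control 4. The part of infiltrating cells, of muscle content or of crypt cells in the replication genes' differences was not tested.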

How the data were processed

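Total RNA from 8 mouse colons was biotin-labelled and read on 1 Affymetrix array per colon, per the labels' protocols. The authors deposited RMA output, and its range of values shows a log2 intensity scale. RMA and Expression Console are named in the submitters' processing notes. The settings, array model and genome build: not given in the sources used here. No counts or detection calls are given, so the number of arrays limits the precision, and RMA compresses low signals.

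Control probe sets were left out, leaving 65956 transcript clusters. Symbols came from the platform annotation, updated through RefSeq (GRCm38.p6). Probe sets of several genes were left unnamed (1489), and the brightest of a gene's probe sets was used, giving 30705 genes. Inflamed minus control was fitted with limma 3.58.1 in R 4.3.3 (lmFit, eBayes, no covariate), with Benjamini-Hochberg adjustment over all genes and a threshold of 0.05. Where nothing else is said, ± is the limma standard error. In a simulation with the same group sizes on 30705 genes, 60% of 100 genes shifted by 0.5 log2 units were recovered. Of 100 shifted by 1 log2 unit, 84% were recovered, and there were 12 false calls. The shifted genes were drawn only from those with a mean above the median over all transcript clusters. No other gene was shifted, and noise was drawn independently for each gene, while 4025 genes were called in the data. The adjusted threshold depends on how many genes differ, so these shares are not the sensitivity of the real fit.

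The members and gene lists were chosen with earlier results of these data known. All members may be named. Values on every array are given for the 15 largest changes past the threshold, Pcna, Mcm2 and the 5 largest differences that missed it with groups apart. Of each other pathway list the 3 largest changes past the threshold are named. The rule also allowed the largest of each marker list, and of those only Lgr5 and Clca1 are named. Array values of other members, and Cda, Tfdp2, Lin37, Muc2, Slc26a3 and Krt20, were added after their values were seen. Alternatives were other scalings, handling of dim genes and probe sets, variance models, blocks and leaving out each array.

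Replicate numbers recur in both groups. Deviations of same-numbered arrays from their group means correlated at -0.29, -0.05 and 0.07 over genes, so the numbers were not taken to pair the mice.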

Additional observations from a re-analysis of the deposited data

Results flagged for a closer look

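Of the 43 genes, 2 had 1 control far from the other controls: the gap to its neighbour, divided by the range of the 5 controls, was above Dixon's critical value of 0.71. Mcm8 was at 5.26 on control 5, the lowest control, and Rfc3 at 5.35 on control 5. Chance flags about 1 in 20 such groups of samples. For both genes 3 of the other controls held the same value to every deposited digit, 5.44 for Mcm8 and 5.49 for Rfc3.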

How the results depend on the processing

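The median difference of the 43 genes was 0.29, and 0.25 to 0.34 with each array left out. It was 0.20 within the low Xist arrays and lay between 0.25 and 0.35 in the other settings. None of the 18 rises changed direction in any setting, and 0 genes of the set were called lower in any. With each array left out, 8 to 16 genes of the set were called higher, 1663 to 2618 of all genes higher and 847 to 1958 lower. Calls in those fits numbered 12 to 19 for other replication genes, 12 to 16 for other nucleotide genes, 10 to 18 for mitotic genes, 4 to 10 for other G1 and S regulators and 6 to 12 for checkpoint and repair genes. Median centring gave 24 of the set and 2645 of all genes higher, array weights 25 and 3340 (with 2356 lower), and dim genes left out 23 and 2887, against 18 and 2478. In the fit with array weights, inflamed 2 had a weight of 0.17, against 0.84 to 1.71 for the other arrays. The sex pattern as a block gave 13 of the set and 2021 of all genes higher. Quantile normalization gave 17 of the set, an intensity trend 17 and the mean over probe sets 18. A floor at the median of all transcript clusters gave 10 of the set, with 1724 of all genes higher and 1003 lower. The 8 genes of the set that lost the call had no value under that floor. Their differences were therefore unchanged (Mcm3 0.83, Mcm6 0.64), with adjusted p of 0.057 to 0.0723. Which step of the fit cost the calls was not tested. Quantile normalization split all calls into 2366 higher and 2216 lower, against 2478 and 1547.

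The test against a 2-fold change (limma's treat) called 0 of the set, 68 of all genes higher and 10 lower, and 0 in each of the other 5 lists, with 0 of the set at an unadjusted p under 0.05. With the replicate number as a replicate block, limma called 0 of the set, 0 of all genes in either direction and 0 in each list, with 21 of the set and 4919 of all genes at an unadjusted p under 0.05. The numbers were not found to pair the mice. Within the low Xist arrays, an alternative chosen after seeing the data, the same counts were 0, with 15 of the set and 4596 of all genes at an unadjusted p under 0.05.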

Other observations

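Exact equality between arrays was common in the deposited values. Among all 30705 genes, 59.7% had the same value to every digit on at least 2 of the 8 arrays. Among the 43 replication and nucleotide genes this held for 12 (27.9%), all of them genes that did not pass: Orc1, Mcm8, Pola2, Pold1, Rfc2, Rfc3, Rfc4, Uhrf1, Tk1, Dut, E2f1 and Ccne2. Of the 18 that rose, 0 had such a value. The groups did not overlap for any of these 18, so a value shared between an inflamed and a control array could not occur in them. The share over all genes takes in called and uncalled genes alike. Mcm8 held 5.44 on 5 arrays, and Rfc3 and Tk1 held 1 value on 4 arrays each.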
